A study of Homo sapiens with 4 samples.

Results

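The genes described here encode the enzymes that set flux through the phosphofructokinase step of glycolysis in U251 cells, an established human glioblastoma (GBM) line. They were chosen by symbol: the phosphofructokinase-1 (PFK-1) isozymes PFKL, PFKM and PFKP, the bifunctional enzymes PFKFB2, PFKFB3 and PFKFB4, and FBP1. Of these 7 named genes, 6 were present among the 15575 genes of the count table and all 6 passed the filter on low counts. FBP1 was not analysed here. The comparison was between 2 Ctrl libraries, labelled U251 with pGreen control, and 2 PRMT3-KD libraries, labelled U251 with PRMT3 knockdown, and it asked how the mRNA of these enzymes differed when PRMT3, a protein arginine methyltransferase, was depleted by lentiviral short hairpin RNA (shRNA). All 4 libraries came from total RNA of the same line, so every result describes 1 tumour cell line. The shRNA used for these libraries is not named in the sources used here. Nothing in the labels said that replicates were separate cultures, so p-values measure the spread between these libraries only.

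PFK-1 phosphorylates fructose 6-phosphate to fructose 1,6-bisphosphate, the step that commits glucose carbon to glycolysis. PFKL is known as the liver type, PFKM as the muscle type and PFKP as the platelet type, and the subunits assemble into mixed tetramers. The PFKFB enzymes carry a kinase that makes fructose 2,6-bisphosphate, the strongest allosteric activator of PFK-1, and a phosphatase that removes it. PFKFB3 has a high ratio of kinase to phosphatase activity, and PFKFB3 and PFKFB4 are known as genes induced by hypoxia-inducible factor (HIF). FBP1 runs the PFK-1 step in reverse during gluconeogenesis.

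The HIF complex binds DNA at a short core, ACGTG or GCGTG, so the bases upstream of the start sites of these genes were searched for that core on both strands. RefSeq promoter windows of GRCh38.p14 were found for 5 of the 6 measured genes, and each of the 5 had at least 1 window of 250 bases before the start that held the core. By window the count was 7 of 15, with 2 of 2 for PFKFB3, 2 of 4 for PFKP and 1 of 7 for PFKM. Of all 35116 windows of the same length 43.2% held it, so the core was common and not particular to these genes. A gene with several windows has more chances to hold the core, and no share by gene was computed over all genes. The windows shown are those of PFKL and PFKFB4, genes with a single annotated start, and that of a second start of PFKFB3, where the core lies within CACGTG and so matches on both strands. CACGTG, also the letters of the E-box bound by MYC and MAX, was present in 6.34% of all windows. Capitals mark the matched letters, and sequences run 5′ to 3′ on the strand of the gene and end at the base before the start. The windows were chr21:44299803-44300052 on the plus strand for PFKL, chr3:48556804-48557053 on the minus strand for PFKFB4 and chr10:6202682-6202931 on the plus strand for PFKFB3.
PFKL: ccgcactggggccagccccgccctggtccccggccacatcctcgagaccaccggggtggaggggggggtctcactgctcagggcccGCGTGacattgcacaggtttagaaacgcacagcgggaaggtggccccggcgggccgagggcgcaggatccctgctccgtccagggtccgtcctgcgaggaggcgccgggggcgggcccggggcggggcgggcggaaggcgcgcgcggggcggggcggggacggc
PFKFB4: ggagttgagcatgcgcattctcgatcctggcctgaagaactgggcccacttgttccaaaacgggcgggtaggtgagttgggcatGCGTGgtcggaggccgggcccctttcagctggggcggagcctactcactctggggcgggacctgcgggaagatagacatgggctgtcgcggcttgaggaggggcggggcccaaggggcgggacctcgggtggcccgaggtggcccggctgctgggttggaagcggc
PFKFB3 second start: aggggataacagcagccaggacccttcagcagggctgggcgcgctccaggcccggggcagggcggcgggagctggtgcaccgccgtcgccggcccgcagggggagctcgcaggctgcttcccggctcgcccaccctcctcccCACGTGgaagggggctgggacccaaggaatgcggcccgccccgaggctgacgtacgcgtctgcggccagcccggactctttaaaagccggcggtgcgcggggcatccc
Counted from the start, the match began at position -164 in PFKL, -166 in PFKFB4 and -108 in PFKFB3. A match describes the letters of the window and is not evidence of binding in these cells.

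Total counts ranged from 24804250 to 29756313 per library. The deposited counts were scaled to a common library total (CPM) with edgeR's TMM factors and tested across 13172 genes, and a gene was called when its adjusted p was under 0.05 and its change over 1.5-fold. The KD libraries differed from each other far more than the Ctrl libraries did, with a chi-square per degree of freedom of 66.0 against 1.41, where counting error alone gives a value near 1. PRMT3 itself had 535 counts in each Ctrl library against 77 and 45 counts after knockdown. Its log2 fold change was -3.08 (SE 0.314, adjusted p = 0.0177, edgeR quasi-likelihood test, Benjamini-Hochberg adjusted). Of 7 markers listed for U251 cells, 6 were present, with a summed level of 8420 and 8399 CPM in Ctrl and 7495 and 7387 CPM in KD libraries, and OLIG2 was not analysed here. VIM and CD44 made up most of that sum, while the astrocyte gene GFAP had 13.1 and 14.3 CPM in Ctrl and 1.26 and 5.39 CPM in KD libraries (adjusted p = 0.0958, edgeR). Of 8 markers of leukocytes, endothelium, neurons and epithelium, 5 were present, with a summed level of 72.5 and 77.0 CPM in Ctrl and 126 and 160.0 CPM in KD libraries. Most of that difference lay in KRT18, an epithelial keratin, and in CDH5, an endothelial cadherin with 722 counts in the second KD library against 129 to 146 in the others, while the leukocyte gene PTPRC had 2 to 7 counts. KRT18 was itself called higher, with a log2 fold change of 1.37 (adjusted p = 0.0192, edgeR), and CDH5 was not called (adjusted p = 0.221, edgeR). The part of these markers in the results was not tested.

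The 6 genes did not move together. PFKL mRNA was reduced to 47.7% of its Ctrl level in PRMT3-KD cells and PFKFB2 mRNA was raised 2.01-fold, and these were the 2 genes called. PFKM and PFKFB4 were lower and PFKFB3 was higher in both KD libraries by less than 1.5-fold, and PFKP overlapped between the groups. The call of 1 gene lower stands beside 5.97% of all tested genes called lower, that of 1 gene higher beside 4.97% called higher, and 10.9% of all tested genes were called in either direction. The median log2 fold change was -0.19 over the 6 genes and 0.01 over all tested genes. At an adjusted p under 0.05 with no fold threshold, 2 of the 6 genes were lower, against 8.91% of all tested genes, and 1 was higher, against 8.39%. The groups did not overlap for 5 genes, 3 lower and 2 higher, and by that measure 33.8% of all tested genes were lower and 33.3% higher. In bulk RNA, fewer cells that express a gene and less RNA per cell cannot be told apart.

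**Figure D1:**
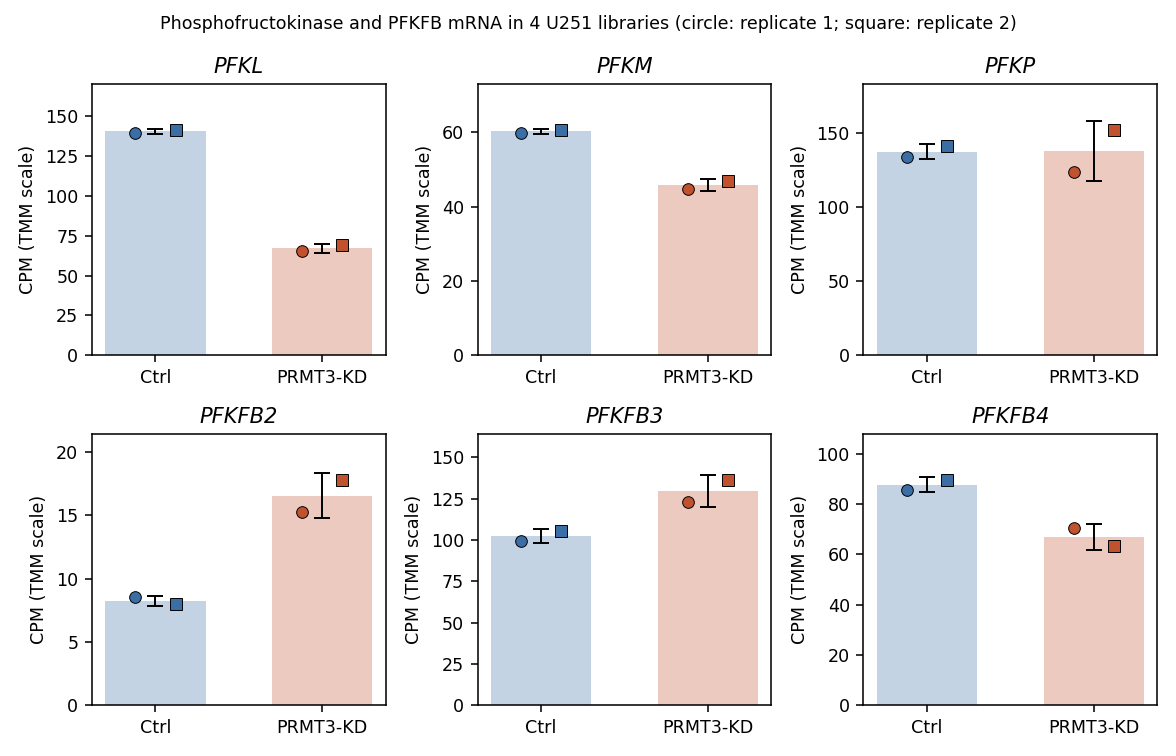
Level of each measured gene in CPM on the TMM scale in the 2 Ctrl and 2 PRMT3-KD libraries, with bars for the mean, whiskers for the SD over 2 libraries and points for the libraries. Both KD points of PFKL lie below 70 CPM and both Ctrl points above 135 CPM, the PFKFB2 points lie higher in KD, and the PFKP points of KD lie on either side of those of Ctrl.

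PFKL (ENSG00000141959, chromosome 21 from 45719934 to 45747259 of GRCh37, plus strand) encodes the liver type PFK-1 subunit. The Ctrl libraries held 3865 and 3893 PFKL counts and the KD libraries 1656 and 1959. On the CPM scale these were 139 and 142 in Ctrl and 65.2 and 69.0 in KD. Both KD libraries were low, the groups did not overlap, and replicates of a group lay close together. Mean PFKL fell from 141 ± 1.44 CPM (SD, n = 2 libraries) to 67.1 ± 2.67 CPM (SD, n = 2). Its log2 fold change was -1.07 (SE 0.0735, 95% interval -1.26 to -0.87, adjusted p = 0.0142, edgeR quasi-likelihood test, Benjamini-Hochberg adjusted). Against the Ctrl mean the change was -1.11 in the first and -1.03 in the second KD library, also log2. PFKL ranked 374 of 13172 genes from the lowest log2 fold change.

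The size of the PFKL change did not rest on a single library, since it lay between -1.11 and -1.02 when each was left out in turn. Its call did depend on the Ctrl libraries: with edgeR the adjusted p was 0.117 without the first and 0.101 without the second Ctrl library, where the spread came from the KD pair alone. Without those libraries edgeR called 0 of all tested genes, with 1633 and 1653 genes at an unadjusted p under 0.05 and over 1.5-fold, and DESeq2 called 264 and 257. DESeq2 kept the call of PFKL, with an adjusted p of 0.0188 and 0.0211. Among 9458 genes of at least 10 CPM compared, those with a profile over the 4 libraries most like PFKL included MGAT5 and AIM1, at root mean square distances of 0.0150 and 0.0290 on the log2 scale. MGAT5 encodes a glycosyltransferase of N-glycan branching.

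PFKM (ENSG00000152556, chromosome 12 from 48498922 to 48540187, plus strand) encodes the muscle type subunit. It had 1658 and 1671 counts in Ctrl and 1135 and 1336 in KD libraries, or 59.8 and 60.8 CPM against 44.7 and 47.0 CPM. The KD libraries were both below the Ctrl libraries. The means were 60.3 ± 0.644 and 45.9 ± 1.66 CPM (each the mean ± SD of 2 libraries). The PFKM log2 fold change was -0.39 (SE 0.0769, 95% interval -0.60 to -0.19, adjusted p = 0.0390, edgeR quasi-likelihood test), short of the 1.5-fold threshold. SENP1, a SUMO protease gene on the opposite strand, shares 516 of the 7246 annotated exon bases of PFKM and none of its canonical transcript, and had a log2 fold change of -0.41 (adjusted p = 0.0491, edgeR). The strand setting of the counting is not given in the sources used here, so reads in those bases cannot be told apart.

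PFKP (ENSG00000067057, chromosome 10 from 3108525 to 3179910, plus strand) encodes the platelet type subunit. It had 3700 and 3878 counts in Ctrl and 3134 and 4321 in KD libraries, or 134 and 141 CPM against 123 and 152 CPM. The KD libraries lay on either side of the Ctrl pair, so the groups overlapped, and the first KD library was 0.15 lower and the second 0.15 higher than the Ctrl mean on the log2 scale. The means were 137 ± 5.27 and 138 ± 20.3 CPM (SD, n = 2 each). The 95% interval of the log2 fold change was -0.32 to 0.33, so changes within it were not excluded by these libraries. The log2 fold change itself was 0.01 (SE 0.124, adjusted p = 0.982, edgeR quasi-likelihood test). Its sign had no stable direction, being -0.03 with scaling to library totals only, and with the first or the second KD library left out it was 0.15 or -0.16, with an adjusted p of 0.000455 and 0.00128 (edgeR) when the spread came from the Ctrl pair alone.

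**Figure D2:**
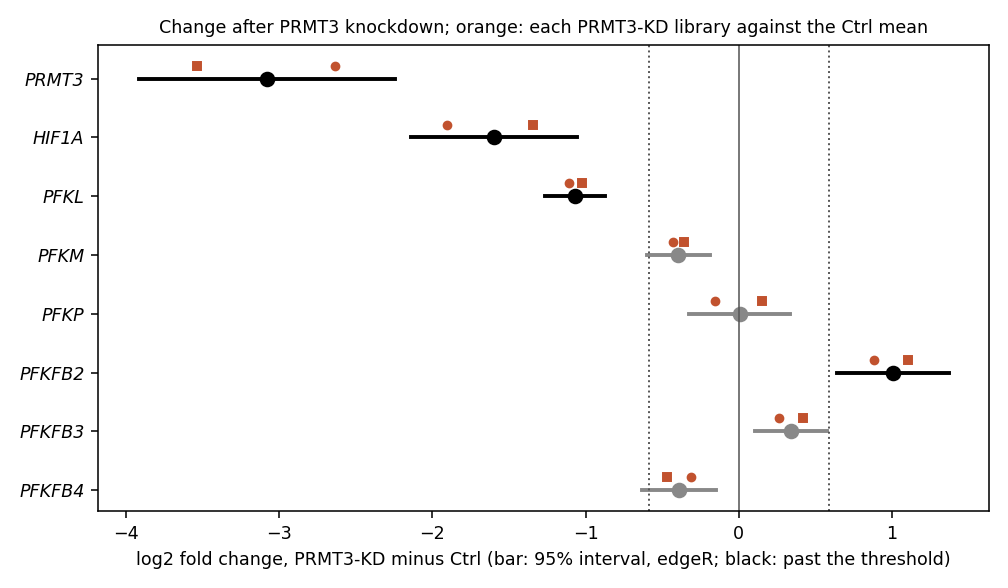
Log2 fold change of PRMT3, HIF1A and the 6 measured genes, PRMT3-KD minus Ctrl, with 95% intervals from edgeR as bars, each KD library against the Ctrl mean as orange points (circle, replicate 1; square, replicate 2), and dotted lines at 1.5-fold. PFKL and PFKFB2 are drawn in black as called, at -1.07 and 1.01, and the interval of PFKP spans 0.

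PFKFB2 (ENSG00000123836, chromosome 1 from 207207711 to 207254369, plus strand) encodes the heart type bifunctional enzyme, a substrate of AKT and AMPK. It was the least abundant of the measured genes, with 236 and 219 counts in Ctrl and 388 and 506 in KD libraries. These were 8.52 and 7.96 CPM in Ctrl and 15.3 and 17.8 CPM in KD, with both KD libraries high. Mean PFKFB2 rose from 8.24 ± 0.393 CPM in Ctrl to 16.5 ± 1.80 CPM in KD (SD over 2 libraries), and the log2 fold change was 1.01 (SE 0.136, 95% interval 0.64 to 1.37, adjusted p = 0.0220, edgeR quasi-likelihood test). The individual KD libraries stood 0.88 and 1.10 above the Ctrl mean on the log2 scale.

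The PFKFB2 change stayed between 0.89 and 1.11 with each library left out, but without the first or the second Ctrl library it was not called, with an adjusted p of 0.2199 and 0.234 in edgeR and of 0.211 and 0.271 in DESeq2. YOD1, a deubiquitinase gene on the opposite strand, shares 315 of the 10176 annotated exon bases of PFKFB2 (3.10%) and none of its canonical transcript. YOD1 had 566 and 553 counts in Ctrl and 2001 and 2131 in KD libraries, a log2 fold change of 1.92 (SE 0.0810, adjusted p = 0.0140, edgeR). How many PFKFB2 counts fell in the shared bases was not tested. The profiles most like PFKFB2 were those of TOB1, an antiproliferative factor, GOLGA4, a Golgi tether, and RECK, an inhibitor of metalloproteases, at distances of 0.0304, 0.0347 and 0.0399.

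PFKFB3 (ENSG00000170525, chromosome 10 from 6186897 to 6296607, plus strand) had 2754 and 2892 counts in Ctrl and 3122 and 3876 in KD libraries. On the CPM scale these were 99.4 and 105 in Ctrl and 123 and 136 in KD, higher in both KD libraries. The means were 102 ± 4.06 and 129.7 ± 9.58 CPM (SD, n = 2 each). The log2 fold change was 0.34 (SE 0.0880, 95% interval 0.11 to 0.58) and missed the threshold at an adjusted p of 0.0642 in the edgeR quasi-likelihood test.

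PFKFB4 (ENSG00000114268, chromosome 3 from 48555117 to 48599448, minus strand) had 2372 and 2469 counts in Ctrl and 1795 and 1797 in KD libraries. In CPM these were 85.6 and 89.8 against 70.7 and 63.3, lower in both KD libraries. The means were 87.7 ± 2.94 and 67.0 ± 5.23 CPM (each the mean ± SD of 2 libraries), and the log2 difference was -0.39 (SE 0.0900, 95% interval -0.63 to -0.15, adjusted p = 0.0530, edgeR quasi-likelihood test). The adjusted p lay on the other side of 0.05 with DESeq2, at 0.0478, with limma-voom, at 0.0453, and with genes of at least 10 counts in every library, at 0.0494, but the change stayed under 1.5-fold. UCN2, a peptide hormone gene on the same strand, shares 298 of the 6107 annotated exon bases of PFKFB4 and none of its canonical transcript. It had 202 and 239 counts in Ctrl and 163 and 86 in KD libraries. PFKFB1, the liver type enzyme that was not among the named genes, had 0 to 4 counts per library and was not tested.

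To compare levels between genes, CPM was divided by the length of the canonical transcript. In Ctrl cells PFKP had the highest level at 52.3 ± 2.01 CPM per kilobase, followed by PFKL at 48.3 ± 0.496, PFKFB4 at 25.1 ± 0.839, PFKFB3 at 22.8 ± 0.906, PFKM at 19.5 ± 0.208 and PFKFB2 at 1.16 ± 0.0556 (SD, n = 2 each). In PRMT3-KD cells the order was PFKP at 52.4 ± 7.74, PFKFB3 at 28.9 ± 2.14, PFKL at 23.1 ± 0.918, PFKFB4 at 19.1 ± 1.49, PFKM at 14.8 ± 0.538 and PFKFB2 at 2.34 ± 0.254 CPM per kilobase. By transcript length, PFKL moved from the second to the third place and PFKFB3 from the fourth to the second. Within a group, libraries of neighbouring genes did not overlap. The order depended on the length used: per kilobase of coding sequence the Ctrl means were 65.6 ± 2.60 for PFKFB3, 62.3 ± 2.09 for PFKFB4, 60.05 ± 0.616 for PFKL and 58.4 ± 2.24 for PFKP, and the libraries of PFKFB3 and PFKFB4 overlapped, as did those of PFKL and PFKP. The KD means by that length were 83.1 ± 6.14 for PFKFB3, 58.6 ± 8.64 for PFKP, 47.6 ± 3.72 for PFKFB4 and 28.7 ± 1.14 for PFKL. By coding length PFKFB3 thus had the highest mean in both groups, and PFKL moved from the third to the fourth place.

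Within each library, the 3 PFK-1 isozymes were expressed as shares of their summed level per length. PFKL took 40.6% and 39.9% of the PFK-1 sum in Ctrl and 26.7% and 24.5% in KD. PFKP took 43.02% and 43.99% in Ctrl and 56.0% and 59.8% in KD. PFKM took 16.4% and 16.1% in Ctrl and 17.2% and 15.7% in KD, and these overlapped. The mean difference in share was -14.6 percentage points for PFKL and 14.4 for PFKP, without overlap between groups. Shares within a sum are tied to each other. The mean PFKP level was 52.3 CPM per kilobase in Ctrl and 52.4 in KD. Its KD libraries, at 47.0 and 57.9, lay below and above both Ctrl libraries. The PFKP share thus rose in both KD libraries, while a change in its level was neither shown nor excluded. The summed level itself was 118 and 122 CPM per kilobase in Ctrl and 83.9 and 96.9 in KD, a mean difference of -24.8%. Every such comparison without overlap had an exact two-sided permutation p of 0.333, the smallest that 2 libraries against 2 allow.

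**Figure D3:**
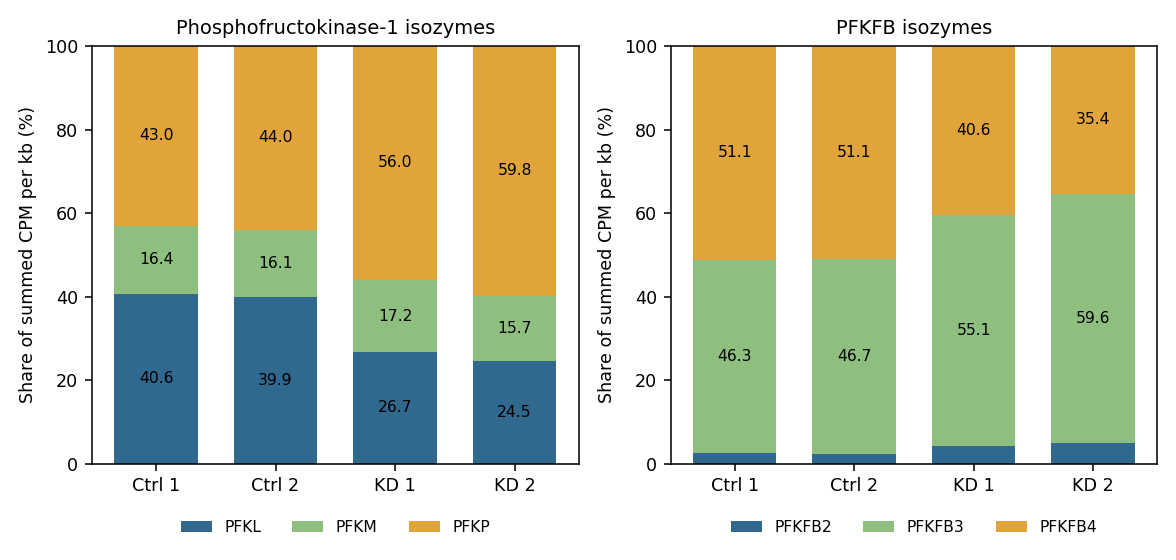
Share of each isozyme, in percent of the summed CPM per kilobase of its family, in the 2 Ctrl and 2 PRMT3-KD (KD) libraries, with PFK-1 isozymes on the left and PFKFB isozymes on the right. The PFKL segment shrinks from 40.6% and 39.9% to 26.7% and 24.5%, and the PFKFB4 segment from 51.1% in both Ctrl libraries to 40.6% and 35.4%.

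Per transcript length, the summed level of the PFKFB genes overlapped between the groups while their shares did not. The sum was 47.8 and 50.2 CPM per kilobase in Ctrl and 49.8 and 51.0 in KD libraries, which overlapped (mean difference 2.77%, exact two-sided permutation p = 0.667). That overlap depended on the length used. Per coding length, per length of all annotated exons and without division by length, the sum was higher in both KD libraries. The log2 differences of the means were then 0.087, 0.084 and 0.105. PFKFB3 took 46.3% and 46.7% of it in Ctrl and 55.1% and 59.6% in KD, and PFKFB4 took 51.1% in each Ctrl library and 40.6% and 35.4% in KD. PFKFB2 took 2.52% and 2.24% in Ctrl and 4.34% and 4.93% in KD. The mean difference in PFKFB2 share was 2.26 percentage points per transcript length and 3.62 per coding length. The ratio of PFKFB3 to PFKFB4 per transcript length was 0.906 and 0.914 in Ctrl and 1.36 and 1.68 in KD, and that of PFKFB3 to PFKL was 0.462 and 0.482 in Ctrl and 1.22 and 1.28 in KD, each with an exact permutation p of 0.333. The fold change of a ratio between groups does not depend on the length used, but its level does. Per coding length or length of all annotated exons, PFKFB3 was above both PFKFB4 and PFKL within each Ctrl library.

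The enzymes on either side of the PFK-1 step were taken from a list of 25 other glycolytic and gluconeogenic genes, of which 19 were in the table and 16 were tested. Of the 16, 4 fell and 0 rose past the threshold, against 5.97% and 4.97% of all tested genes. The median log2 fold change of the 16 was -0.34. By adjusted p alone 5 of them were lower and 1 higher (edgeR), against 8.91% and 8.39% of all tested genes. At an unadjusted p under 0.05 and any fold, 6 were lower and 1 higher, against 18.5% and 19.1% of all tested genes, and DESeq2 also called 4 lower and 0 higher. Like every edgeR call, these were lost without either Ctrl library, and without the first KD library GAPDH and GPI stood under 1.5-fold, at -0.54 and -0.51. PGK1, which makes ATP from 1,3-bisphosphoglycerate, fell from 721 ± 0.283 CPM in Ctrl to 194 ± 5.87 CPM in KD (SD over 2 libraries), or -1.89 on the log2 scale (adjusted p = 0.0140, edgeR quasi-likelihood test). Enolase ENO1 fell by 0.77, GAPDH by 0.68 and GPI, which supplies fructose 6-phosphate to PFK-1, by 0.65 on the log2 scale, with adjusted p of 0.0262, 0.0326 and 0.0339 in edgeR. PKM, the pyruvate kinase gene, had a log2 fold change of 0.11 (95% interval -0.14 to 0.36) and ALDOA, the aldolase directly after PFK-1, of -0.12 (95% interval -0.30 to 0.06). Chosen after their values were seen, the other genes with an adjusted p under 0.05 (edgeR) were hexokinase HK1 at 0.34 and triosephosphate isomerase TPI1 at -0.41, both under 1.5-fold.

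**Figure D4:**
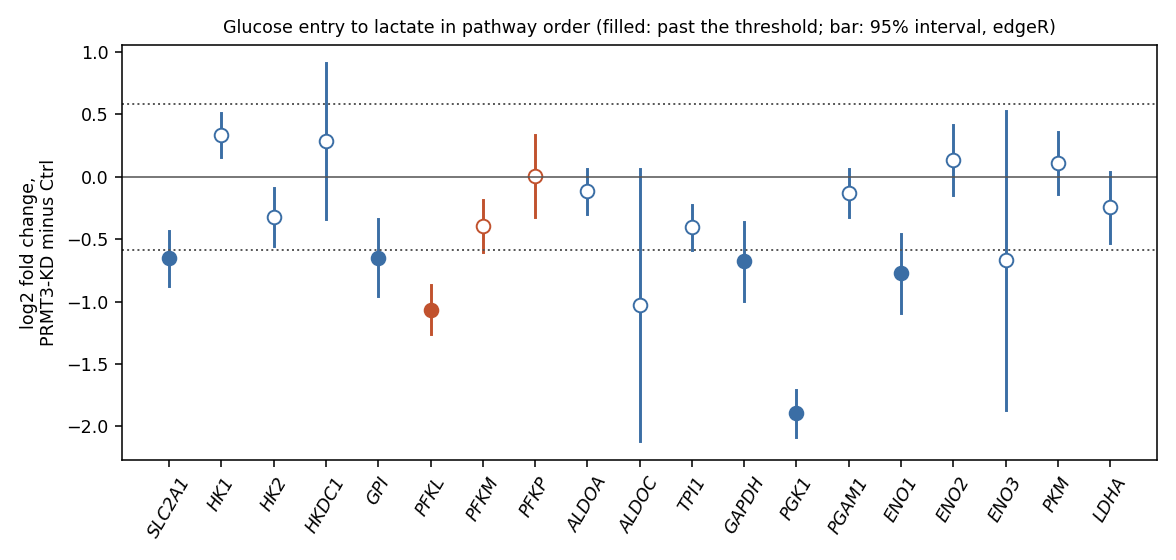
Log2 fold change, PRMT3-KD minus Ctrl, of tested genes from glucose entry (SLC2A1) to lactate (LDHA) in pathway order, with 95% intervals from edgeR, filled points for genes called and dotted lines at 1.5-fold; the PFK-1 genes are in orange. PFKL is the only PFK-1 gene that is filled, and PGK1 lies lowest at -1.89.

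HIF1A mRNA, which encodes the oxygen-regulated HIF subunit, had 20448 and 20042 counts in Ctrl and 4973 and 8204 in KD libraries. It fell by 1.60 on the log2 scale (SE 0.203, adjusted p = 0.0204, edgeR quasi-likelihood test). The KD library with less HIF1A was the first, and it also had the lower level of PFKL, PFKM, PFKP, PFKFB2 and PFKFB3 but the higher level of PFKFB4. PRMT3 was ordered the other way, with 77 counts in the first and 45 in the second KD library. Whether these genes follow HIF1A or PRMT3 was not tested. A list of 21 HIF subunits and hypoxia-inducible genes, all tested, had 5 genes lower and 2 higher past the threshold. Of all tested genes, 5.97% were lower and 4.97% higher by that measure. The median log2 fold change of the list was -0.23. With HIF1A, the genes that fell were the glucose transporter SLC2A1 by 0.65, the pyruvate dehydrogenase kinase PDK1 by 0.61, the lactate exporter SLC16A3 by 0.81 and the MYC antagonist MXI1 by 0.89 on the log2 scale, with adjusted p of 0.0204, 0.0306, 0.0156 and 0.0482 (edgeR). EPAS1, which encodes HIF-2 alpha, rose by 0.99 and the peptide hormone gene ADM by 1.005 on the log2 scale, with adjusted p of 0.0192 and 0.0337 (edgeR). MXI1 was not called with limma-voom (adjusted p = 0.0602). With a replicate block neither MXI1 nor PDK1 was called (adjusted p = 0.0504 and 0.0523, edgeR). SLC2A1 was under 1.5-fold without the first KD library, at -0.58, and PDK1 without the second, at -0.56. PFKFB3 and PFKFB4, introduced above as induced by HIF, were higher and lower in both KD libraries, neither past the threshold. The authors also count PFKL, the member called lower, among the glycolytic targets of HIF1A. They name PGK1, GAPDH and TPI1 as such targets too, and none of these was in the HIF list.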

How the data were processed

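RNA of 2 Ctrl and 2 PRMT3-KD U251 libraries was sequenced. The authors aligned reads to hg19 with TopHat and deposited unnormalized whole-number counts per gene from Cufflinks, and the labels also name CASAVA and DESeq2. Versions, annotation and strand setting are not given in the sources used here. One duplicate entry among 15576 was removed. The analysis ran in R 4.3.3 and used edgeR 4.0.16: filterByExpr (minimum count 10, minimum total 15), TMM, glmQLFit and glmQLFTest, with Benjamini-Hochberg adjustment over 13172 genes. Each standard error was the absolute log2 fold change divided by the root of F. The scripts were tested on simulated data. The counts simulated for the edgeR fit had the same spread in both groups, unlike the Ctrl and KD libraries. They do not show how the calls fare with unequal spread. Gene positions and lengths came from GENCODE 44 on GRCh37, and promoter windows from RefSeq on GRCh38.p14, and no coordinate was converted. Shares and figures were made in Python 3.11.15.

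The 6 measured genes and the gene lists were chosen with earlier results of these data known. The named genes were the members, PRMT3, HIF1A, of each list the genes past the threshold and those with the most counts up to 6, and the 3 most similar profiles of each member called. Of the genes that this rule names, 2 are not reported here. Genes that share exon bases with a member were named after their values were seen. Alternatives were DESeq2 1.42.0, limma-voom (limma 3.58.1) with group weights, other scalings and filters, no fold threshold, a replicate block, other lengths and each library left out. Union exon lengths and DESeq2 with a library left out were added after seeing the data. Total counts of 24804250 to 29756313 set the precision, lowest for genes of few counts.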

Additional observations from a re-analysis of the deposited data

How the results depend on the processing

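No member changed direction under DESeq2, limma-voom, other scalings, other filters or the replicate block, except for PFKP, whose log2 fold change was -0.031 with library totals only and -0.0023 with the replicate block. PFKL and PFKFB2 remained called in all of these. By adjusted p alone 2 members were lower and 1 was higher. Of all tested genes, 1173 (8.91%) were lower and 1105 (8.39%) higher by that measure. In the glycolytic list 5 of 16 tested genes were then lower and 1 higher, and of 12 regulators of PFKFB enzymes 1 was lower and 2 were higher. With library totals only, 0 users of fructose 6-phosphate were called higher, and 3 genes of the HIF list were lower with the replicate block, which ended the calls of PDK1 (adjusted p = 0.0523, edgeR) and MXI1 (0.0504) and no call of a member. PFKM, under 1.5-fold, had an adjusted p of 0.0834 with the block (edgeR). The replicate numbers were not taken as a pairing. Deviations of same-numbered libraries had a correlation of 0.0222 across genes. The Ctrl pair differed by little more than counting error (chi-square per degree of freedom 1.41), so that correlation could not exclude a pairing. DESeq2 called 1838 genes, of which 1397 were among the 1441, and the block called 1464, of which 1274 were. The PFKFB2 share differed by 3.59 points from raw counts and 3.62 from coding length, against 2.26, and the summed PFKFB level by 0.105 (log2) from raw counts.

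With each library left out, log2 fold changes ranged from -1.11 to -1.02 (PFKL), -0.16 to 0.15 (PFKP) and 0.89 to 1.11 (PFKFB2), and the difference in PFKM share from -0.53 to 0.99 points. With DESeq2, PFKP was -0.029 and -0.16 without the first Ctrl and the second KD library and PFKFB2 was 1.06 and 0.96 without the first and second Ctrl library. Members called ranged from 0 to 1 in each direction. Of all genes, 0 to 1636 were called lower and 0 to 1432 higher with edgeR, while DESeq2 called 142 lower without either Ctrl library and 1240 and 1325 without the first and second KD library, and 122, 115, 1102 and 1011 higher in the same order. At an unadjusted p under 0.05 and over 1.5-fold, edgeR gave 1633 and 1653 genes without the first and second Ctrl library. Calls in the lists ranged from 0 to 5 lower for the glycolytic list, the users of fructose 6-phosphate and the HIF list, 0 to 1 lower for the regulators, and 0 to 1 (users), 0 to 2 (regulators) and 0 to 2 (HIF list) higher. The lone library of a group was then assumed to vary like the other group. Low counts limit PFKFB2 most.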

Other observations

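Fructose 6-phosphate, the substrate of PFK-1, is also drawn into the pentose phosphate and hexosamine pathways. Of 11 tested genes of its other users and neighbours, 2 fell and 1 rose past the threshold, against 5.97% and 4.97% of all tested genes. PGD, an oxidative pentose phosphate enzyme, had 206 and 208 CPM in Ctrl and 83.6 and 128 CPM in KD libraries and fell by 0.97 (log2; adjusted p = 0.0492, edgeR quasi-likelihood test). RPIA, which isomerises ribose 5-phosphate, had 13.4 and 13.7 CPM in Ctrl and 24.0 and 19.9 CPM in KD libraries and rose by 0.70 (adjusted p = 0.0365, edgeR), a call lost with scaling to library totals only (adjusted p = 0.0634, edgeR) and without the first KD library, where the change of 0.56 was under 1.5-fold. GPI was the other gene that fell, and it too was under 1.5-fold without that library. TALDO1 had a log2 fold change of -0.40 (adjusted p = 0.0498, edgeR), under 1.5-fold. Transketolase TKT split the KD pair, with 18937 and 45021 counts against 38638 and 39308 in Ctrl.

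Among 12 tested regulators of PFKFB enzymes or of fructose 2,6-bisphosphate, 0 fell and 2 rose past the threshold in edgeR and in DESeq2. Of all tested genes, 5.97% fell and 4.97% rose past it in edgeR. At an unadjusted p under 0.05 in edgeR, 2 of the 12 were lower and 5 higher, against 18.5% and 19.1% of all tested genes. The median log2 fold change of the 12 was 0.13. BTRC, a ubiquitin ligase adaptor, had 30.6 and 31.0 CPM in Ctrl and 61.2 and 60.3 CPM in KD libraries, a log2 fold change of 0.98 (adjusted p = 0.0142, edgeR quasi-likelihood test). PRKAG2, a regulatory subunit of AMPK, rose from 73.5 ± 0.0824 CPM in Ctrl to 120.1 ± 3.59 CPM in KD (SD over 2 libraries), a change of 0.71 in log2 units with an adjusted p of 0.0172 (edgeR). FZR1, the adaptor of the ubiquitin ligase APC/C, had a log2 fold change of -0.40 (adjusted p = 0.0374, edgeR), under 1.5-fold. The kinase genes AKT1, AKT2 and PRKAA1 had log2 fold changes of -0.17, -0.08 and 0.08 and adjusted p of 0.165, 0.456 and 0.469 (edgeR).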
